A study of Mus musculus with 2 samples.

Results

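The small proline-rich genes of the Sprr2 family were followed in the skin of newborn mice with and without Pnpla1. The family was taken as the probes whose gene name on the array was Sprr2a2, Sprr2b, Sprr2d, Sprr2e, Sprr2f, Sprr2g, Sprr2h, Sprr2i, Sprr2j-ps or Sprr2k, which gave 12 probes for 10 genes out of 39429 probes for 30133 genes. Of the 10 genes, 9 had 1 probe and Sprr2a2 had 3, and each probe had 1 spot per array. The family was chosen by the ratios of Pnpla1-/- to Pnpla1+/+ intensity reported here, so that the differences below describe it and test nothing. Both groups were mice of the C57BL/6N background at postnatal day 0, and the tissue was labelled skin, although the design text also speaks of epidermis. The Pnpla1+/+ group was wild type, and the Pnpla1-/- group came from heterozygous crosses of the knockout-first allele Pnpla1 tm1a(KOMP)Wtsi, whose cassettes had been taken out with flippase. Controls were littermates, and the loss was global, with no Cre line that confines it to a cell type. RNA of 6 animals per genotype was pooled in equal amounts and hybridized in 1 colour (Cy3) to 1 Agilent array per genotype, both on the same slide, so that there was no replicate, no test could be run and the spread between mice is unknown. Pnpla1-/- pups die soon after birth, and no later stage was analysed here.

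SPRR proteins are short, proline-, glutamine- and lysine-rich precursors of the cornified envelope, the protein shell that replaces the plasma membrane of a dying keratinocyte. Transglutaminases join them to loricrin and other precursors, and SPRR proteins act as bridges between the larger partners. The genes lie side by side in the epidermal differentiation complex on mouse chromosome 3. In mature epidermis the SPRR2 genes are known to be little expressed between hair follicles and to be induced by injury, inflammation and barrier stress, and AP-1, ETS, KLF, STAT3 and NRF2 factors are among the known regulators of SPRR genes.

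The members of the family are close copies, and the sequence on the array decides what each probe can report. A word of 8 bases, ATTTCCTG, stood in 6 of the 12 probes and in 0.238% of all probes of the array. In the stretches of 30 bases below, read from the probes of 60 bases, the word is in capitals.

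Sprr2a2, middle probe: ctgctgtttcATTTCCTGaaataaaaaagg
Sprr2d: tgtgttgtcagcatggtttcATTTCCTGaa
Sprr2e: ttgtgttgtcattgttgtttcATTTCCTGa
Sprr2h: atagtagtggtcattgtttcttATTTCCTG
Sprr2i: actgttttttcATTTCCTGaataaagtacc
Sprr2j-ps: cactggtgttctATTTCCTGaataaagtac

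Some of the bases next to the word were shared between probes, and bases further from it differed from gene to gene. Over the 66 pairs of probes, the longest run of identical bases had a median of 7 bases and was longest, at 18 bases, between the probes of Sprr2i and Sprr2j-ps. No probe of another name on the array shared a run of 20 or more bases with 11 of the 12 probes. The exception was the 3′-most probe of Sprr2a2, which is described with that gene. How much signal a probe took up from the RNA of another member was not tested.

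Upstream of the genes, RefSeq promoter windows of the GRCm38.p6 build, 250 bases before to 50 after the annotated start, were given for 8 of the 10 members and not for Sprr2g and Sprr2j-ps. Printed are the 200 bases before the start of 5 of them, all on the plus strand: Sprr2f and Sprr2h because they had the largest and the smallest reported difference among the genes with 1 probe, Sprr2d and Sprr2e because they were the most alike, and Sprr2a2 because it stood apart. Capitals mark the AP-1 motif TGANTCA, the octamer ATTTGCAT and the TATA box TATAAA.

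Sprr2f, chr3:92364987-92365186: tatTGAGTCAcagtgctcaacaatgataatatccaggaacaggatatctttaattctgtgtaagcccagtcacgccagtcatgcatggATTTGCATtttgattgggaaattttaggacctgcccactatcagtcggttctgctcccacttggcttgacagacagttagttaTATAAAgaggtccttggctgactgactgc
Sprr2h, chr3:92385485-92385684: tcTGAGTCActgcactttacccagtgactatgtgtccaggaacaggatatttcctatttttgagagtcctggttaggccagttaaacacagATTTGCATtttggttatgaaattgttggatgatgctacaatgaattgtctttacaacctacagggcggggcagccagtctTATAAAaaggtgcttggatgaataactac
Sprr2d, chr3:92338940-92339139: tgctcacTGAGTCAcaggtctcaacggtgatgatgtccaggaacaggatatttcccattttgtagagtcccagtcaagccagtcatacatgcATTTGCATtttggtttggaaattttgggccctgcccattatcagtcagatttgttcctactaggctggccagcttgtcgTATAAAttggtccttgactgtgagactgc
Sprr2e, chr3:92351943-92352142: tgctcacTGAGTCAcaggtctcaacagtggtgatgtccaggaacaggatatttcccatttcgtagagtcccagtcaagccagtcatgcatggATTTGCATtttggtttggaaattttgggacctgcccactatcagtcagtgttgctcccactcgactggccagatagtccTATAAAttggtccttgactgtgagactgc
Sprr2a2, chr3:92250447-92250646: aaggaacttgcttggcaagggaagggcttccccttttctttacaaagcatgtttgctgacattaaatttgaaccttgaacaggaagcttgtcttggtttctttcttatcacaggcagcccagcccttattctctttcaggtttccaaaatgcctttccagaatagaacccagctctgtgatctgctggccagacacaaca

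The 7 windows other than that of Sprr2a2 shared a layout. The AP-1 letters, the octamer and the TATA box were each found in those 7 and not in Sprr2a2, on either strand, against 7.81%, 1.74% and 13.6% of 32851 promoter windows of the same length. The Sprr2a2 window may not be in register with the others, as described with the 5′-most probe of that gene. The TATA box began at base -29 from the start in all 7, the octamer between -112 and -108 and the first AP-1 match between -198 and -193, and Sprr2k held a further AP-1 match at -182. The order of the 3 motifs was therefore the same in genes whose differences on the arrays ran from 4.75 to 9.98 on the log2 scale. Of these genes, Sprr2k gave only a lower limit and Sprr2b only a flagged spot, as described below.

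Of the other motifs searched on both strands, TGANNNNGC for NRF2 was in 5 of the 8 windows and in 41.3% of all windows. CCACCC for KLF factors was in 2 of 8 and in 31.5% of all windows, and TTCNNNGAA for STAT factors was in Sprr2i alone and in 8.30% of all windows. Neither CCGGAA for ETS factors nor the core of the interferon-stimulated response element was found in any of the 8, against 14.9% and 3.44% of all windows. The NRF2 match of Sprr2b, from base -111, overlapped its octamer, from base -108. A match describes letters in this window and not a bound site.

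**Figure D1:**
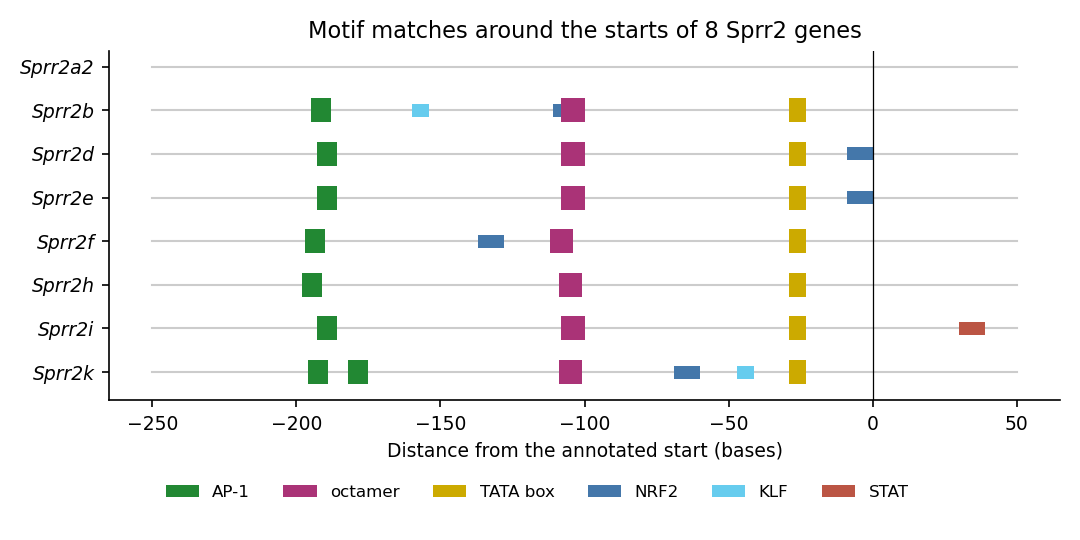
Motif matches in the promoter windows of the 8 Sprr2 genes with a RefSeq window, 1 row per gene, against the distance in bases from the annotated start (vertical line), with a coloured box for each match. The AP-1, octamer and TATA letters stand at nearly the same distance in 7 genes. The row of Sprr2a2 is empty, and its window may not be in register with the others.

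The 7 windows were 61.1% to 89.3% identical to one another, with a median of 65.6% over 21 pairs. Sprr2d and Sprr2e were the most alike, at 89.3%, followed by Sprr2h and Sprr2k at 80.6%. The window of Sprr2a2 was 49.8% to 53.0% identical to the others and was the same, base for base, as that of its neighbour Sprr2a1. Whether a Sprr2a2 window placed further downstream would be more alike was not tested.

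On the arrays, intensities are given as deposited, in the order Pnpla1+/+ then Pnpla1-/-. Each difference is the log2 of the Pnpla1-/- over the Pnpla1+/+ intensity, after both were divided by the 75th percentile of their array, which was 2108 and 1734. A probe counts as detected where the scanner software called it well above background, as it did for 71.7% and 73.3% of the 43020 spots, and no spot was saturated. A probe detected on 1 array only has a bound in place of a difference: on the other array its own reading, or the faintest detected signal there if that was brighter, was put in as its level. The technical SD of a difference, from 309 probes with at least 8 spots per array, was 0.081, and the error that the software attaches to a Sprr2 difference was 0.20 to 0.53. Neither covers the variation between mice, and in whole skin more cells that express a gene and more RNA per cell cannot be told apart.

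Pnpla1, the gene removed, was lower in Pnpla1-/- skin, with an intensity of 579 in wild-type and 114 in Pnpla1-/- skin at the probe chr17:29026908-29026967 (mm9, as all probe positions). The difference was -2.07, and the Pnpla1-/- signal still counted as detected. Whether this probe lies in the deleted part was not tested.

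Most Sprr2 probes were dim in wild-type skin and bright in the knockout. Of the 12 probes, with the flagged Sprr2b spot included, 8 lay below the 75th percentile of the Pnpla1+/+ array and 11 lay above that of the Pnpla1-/- array. A 2-fold or larger excess in Pnpla1-/- skin was found for 8 of the 9 genes that gave a value, against 6.69% of 22388 genes over the whole array, and a 2-fold or larger deficit for 0 of 9, against 3.05%. Of 11 probes without an outlier flag, 10 were at least 2-fold higher, against 6.41% of 29322 probes, and 2.93% of all probes were at least 2-fold lower. The median over the 8 genes detected on both arrays was 8.66, or 404-fold, and the median over all genes was 0.0027. These shares and medians were known when the family was chosen, and nothing is read from them.

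Sprr2f had the largest difference among the 22388 genes with a value, although with normexp background correction it was 8.94 and Sprr2i, at 9.18, lay above it. Its intensity was 57.5 in wild-type and 47601 in Pnpla1-/- skin, a difference of 9.98 or 1007-fold (probe chr3:92170259-92170318). Sprr2i, at rank 2, was 103 and 77101, a difference of 9.83 (chr3:92213134-92213193). Both were dim but detected in wild-type skin and bright in the knockout.

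Sprr2j-ps and Sprr2e followed at ranks 5 and 6. Sprr2j-ps, which RefSeq lists as a transcribed pseudogene, had an intensity of 61.9 in wild-type and 29469 in Pnpla1-/- skin, a difference of 9.18 (chr3:92223245-92223304). Sprr2e was 255 and 119040, a difference of 9.15 (chr3:92157288-92157347). The 2 differences were closer to each other than the error of either, but lay at 8.18 and 8.81 with normexp.

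Sprr2g, which RefSeq also lists as a transcribed pseudogene, was at rank 9. Its intensity was 354 in wild-type and 83648 in Pnpla1-/- skin, a difference of 8.17 (chr3:92179092-92179151). Probes named for the 2 loci annotated as pseudogenes thus rose as those of coding members did.

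Sprr2k was not well above background in wild-type skin. The probe read 22.7 in wild-type and 2164 in Pnpla1-/- skin (chr3:92237790-92237849), so that Sprr2k was at least 110.0-fold higher, a bound of 6.78. This bound depends on the background correction, and with normexp it was 4.95.

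Apart from Sprr2a2, Sprr2d and Sprr2h were the members above the 75th percentile of the array in wild-type skin. Sprr2d had an intensity of 5673 in wild-type and 303132 in Pnpla1-/- skin, a difference of 6.02 or 65.0-fold (chr3:92144721-92144780). Sprr2h was 3924 and 86548, a difference of 4.75 or 26.8-fold (chr3:92191160-92191219). They ranked 26 and 50, and their differences were the smallest among the genes with 1 unflagged probe, except that with normexp the value of Sprr2k was below that of Sprr2d. Sprr2d and Sprr2e, with promoter windows 89.3% identical, thus had differences between genotypes of 6.02 and 9.15.

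Sprr2b had a single spot, which carried a non-uniformity flag on the Pnpla1+/+ array and was left out of the fold counts. Its intensity was 202 in wild-type and 12195 in Pnpla1-/- skin (chr3:92121660-92121719). The spread of its pixels was 73.5% of their mean in Pnpla1+/+ and 5.57% in Pnpla1-/- skin.

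**Figure D2:**
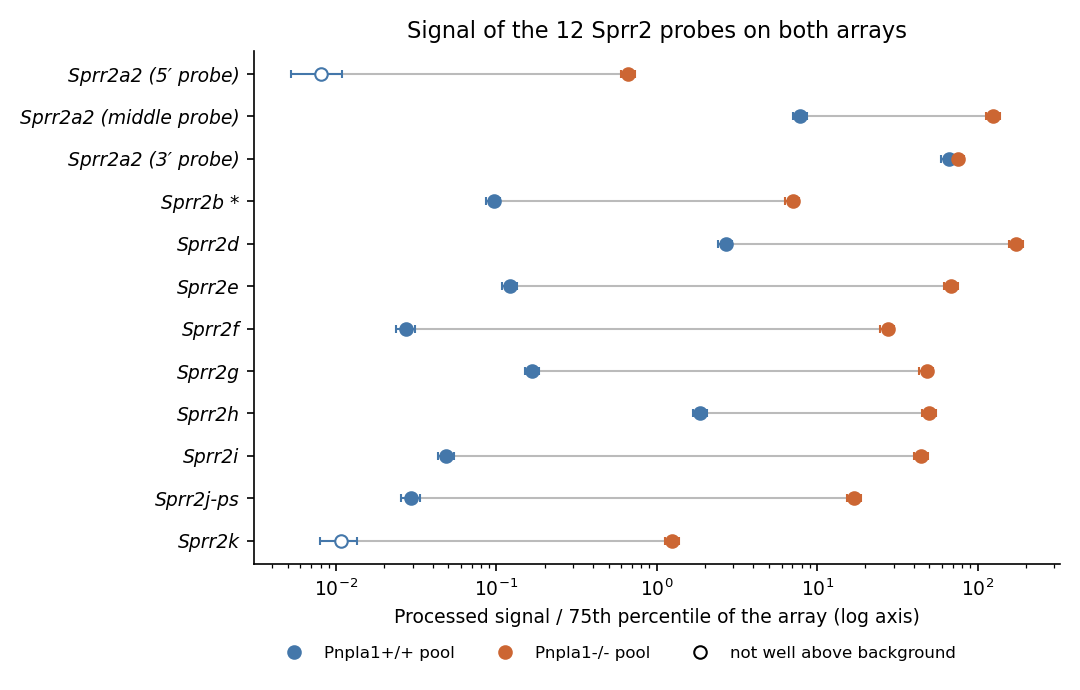
Signal of each of the 12 Sprr2 probes divided by the 75th percentile of its array (log axis), with Pnpla1+/+ and Pnpla1-/- skin joined by a line, 1 array each; bars are the scanner software's error of a spot, open circles are not well above background and the asterisk marks the flagged Sprr2b spot. The Pnpla1-/- point lies to the right by 16.1-fold or more at 11 probes, the flagged Sprr2b spot among them, and at the 3′-most Sprr2a2 probe the points are at 66.1 and 75.2.

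The 3 probes of Sprr2a2 gave 3 different answers. On the transcript they are named for, they were listed at bases 58, 737 and 2907 from 5′ to 3′. The probes of the other members were listed between base 351 (Sprr2b) and base 665 (Sprr2h) of their transcripts. The 5′-most probe (chr3:92054627-92054686) read 17.0 in Pnpla1+/+, not well above background, and 1152 in Pnpla1-/- skin, at least 58.6-fold higher, a bound of 5.87 against a measured 4.11 with normexp background correction. The middle probe (chr3:92058417-92058476) read 16444 and 217579, a difference of 4.01 or 16.1-fold. The 3′-most probe (chr3:92060587-92060646) read 139296 and 130335, a difference of 0.19, which is within the software's error of 0.20.

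The rule that a gene is represented by its brightest probe gave Sprr2a2 the value of the 3′-most probe and rank 7523. The first 30 bases of the 3′-most probe are shown with capitals for the stretch that recurs in 6 probes listed under other names.

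Sprr2a2, 3′-most probe: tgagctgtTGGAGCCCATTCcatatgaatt

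The 6 other probes shared runs of 20 to 31 bases with it. All 6 were well above background on both arrays, and their differences ran from 0.097 to 0.22, with 0.19 for the Sprr2a2 probe between them. Whether any of these probes took up the RNA meant for another was not tested.

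The 5′-most Sprr2a2 probe had a different neighbour in sequence. It matched the window around the start of Sprr2b at 59 of its 60 bases, with an unbroken run of 51, and its base 28 fell on the annotated start of Sprr2b. Its listed position on the Sprr2a2 transcript, base 58, is past the 50 bases after the start that the Sprr2a2 window covers. If that position holds, sequence like the start of Sprr2b lies downstream of the Sprr2a2 window, where motifs were not searched. Which of these genes gave its signal was not tested. The probe named Sprr2a1 on the array, which was not counted in the family, read 5.02 and 7.92 and was detected in neither genotype.

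**Figure D3:**
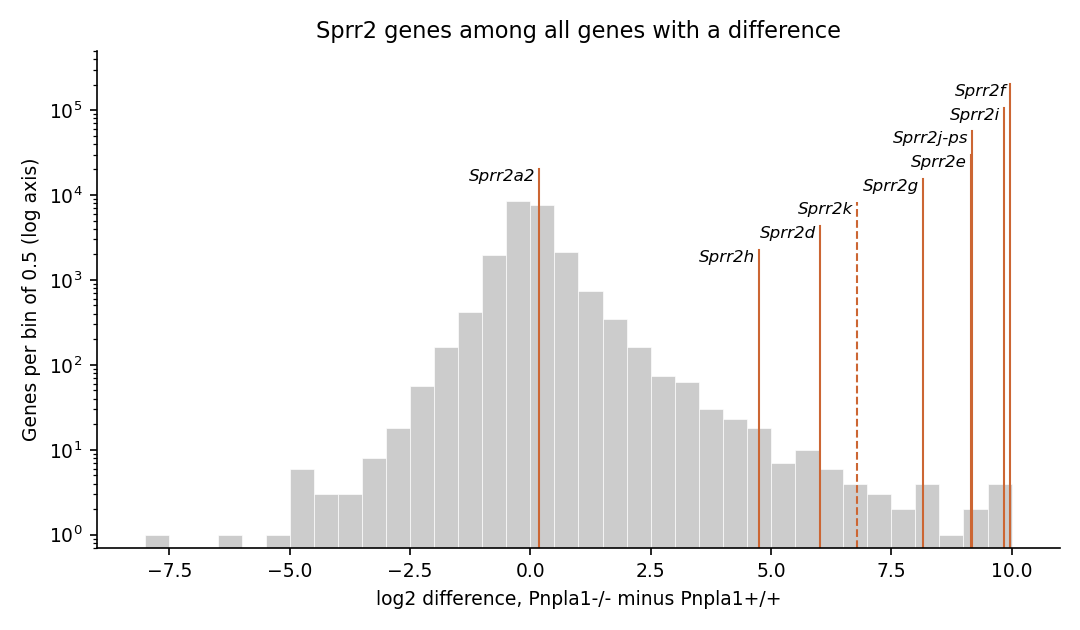
Histogram of log2 differences (Pnpla1-/- minus Pnpla1+/+, bins of 0.5, log axis for the number of genes) for all 22388 genes with a difference or bound, with a line for each of 9 Sprr2 genes and a dashed line for the bound of Sprr2k. Sprr2a2, at 0.19, lies above 66.4% of the genes, and the other 8 lie at 4.75 or above.

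Among all genes, 5 of the 10 largest and 8 of the 100 largest differences belonged to the family, as its choice by these values implies. The 5 genes with a symbol outside the family whose difference came nearest to its median of 8.66 were Gm21944 at 8.24, Defb6 at 8.13, Saa3 at 8.07, Slpi at 7.81 and Gm5478 at 7.79. Defb6 is a beta-defensin, Saa3 an acute-phase serum amyloid A protein and Slpi a secreted inhibitor of leukocyte proteases. Defb6 went from 65.6 in Pnpla1+/+ to 15089 in Pnpla1-/- skin, Saa3 from 66.7 to 14713 and Slpi from 244 to 45044.

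The rise did not extend evenly over the neighbouring genes. The reference annotation lists 25 genes from Lor to Ivl, the 10 members and 15 others. Of these 15, 9 were on the array by name and 7 gave a difference. Lor, the gene of loricrin and the main envelope protein, had intensities of 243070 in wild-type and 162800 in Pnpla1-/- skin, a difference of -0.30. Next to it Prr9 was at -0.59 and Lelp1 at 0.27, a sign that turned with other scalings. On the far side of the family, Ivl, the gene of the early envelope scaffold involucrin, was 4457 and 3711, a difference of 0.02 that also changed sign with the scaling. Gm35439, Gm5850, Gm5851, Sprr2a3, Sprr2c-ps and Gm9774 had no probe under their names.

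The other Sprr genes lay between the Sprr2 genes and Ivl and did not move as 1 group. Of 4 with a probe, 3 gave a difference, of which 2 passed 2-fold upward and 0 downward, against 6.69% and 3.05% of all genes. Sprr1b, an envelope precursor induced by stress, had an intensity of 5644 in wild-type and 101699 in Pnpla1-/- skin, a difference of 4.45, and its relative Sprr1a was 8362 and 31300, a difference of 2.19. Sprr4 was lower, at 324 and 141, a difference of -0.92 that is short of 2-fold here and past it without scaling and with spike-in centring. Sprr3, a gene of wet stratified epithelia such as oesophagus, was detected in neither genotype, at 8.36 and 11.8. The median over the 3 genes with a difference was 2.19.

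**Figure D4:**
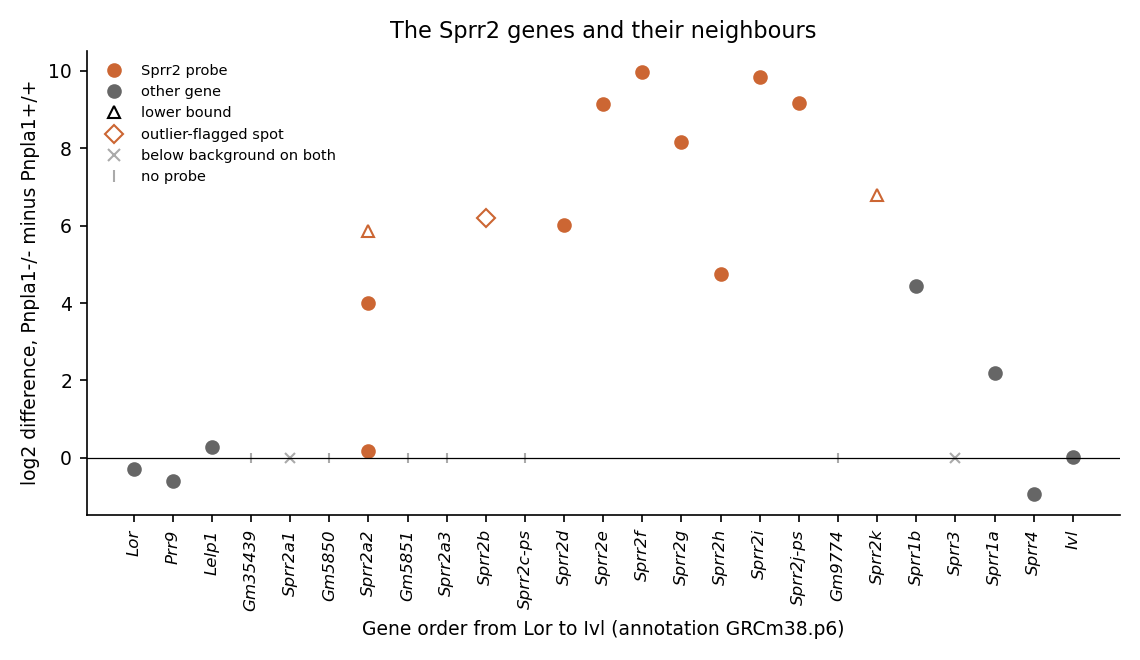
Log2 difference (Pnpla1-/- minus Pnpla1+/+) of the genes from Lor to Ivl in the order of the annotation, 1 point per gene except for the 3 probes of Sprr2a2, with Sprr2 probes in colour, triangles for lower bounds, a diamond for the flagged Sprr2b spot, crosses for genes below background on both arrays and ticks for genes without a probe. Between Lor at -0.30 and Ivl at 0.02, the differences reach 9.98 at Sprr2f and fall to -0.92 at Sprr4.

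Other envelope genes were set beside the family as fixed lists, each counted at 2-fold as above. The shares over all genes were 6.69% higher and 3.05% lower. All 6 Lce3 genes, late envelope genes linked to barrier repair, were at least 2-fold higher, with a median of 4.80, a lowest value of 3.74 for Lce3c (6801 in wild-type and 74563 in Pnpla1-/- skin) and a highest of 9.75 for Lce3a (57.7 and 40951), or 8.76 with normexp. Of 14 Lce1 genes, the late envelope genes of normal skin, 13 had a probe, 12 were at least 2-fold lower and 0 higher, with a median of -1.46. They ran from -7.73 for Lce1m (90931 and 352) to -0.84 for Lce1g (42816 and 19734). The Lce3 genes thus lay on the side of most Sprr2 genes and the Lce1 genes on the other.

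Of 12 scaffold and envelope-associated genes, 11 had a difference, 2 were 2-fold or more higher and 1 that much lower, with a median of 0.11 that lay below 0 without scaling and with spike-in centring. Rptn, the S100-fused envelope protein repetin, was highest at 5.26 (603 in wild-type and 19047 in Pnpla1-/- skin) and Flg2, the filaggrin relative, lowest at -6.41 (20467 and 198). Flg was not analysed here. The 3 transglutaminases that cross-link envelope precursors were all at least 2-fold higher, with Tgm1 at 1.86 (2942 and 8764), Tgm3 at 2.12 (1085 and 3866) and Tgm5 at 1.27 (5442 and 10798). Tgm5 fell short of 2-fold without scaling and with spike-in centring, at 0.84 with the latter, and Tgm3 was at 1.07 with the mean over its probes. These differences were smaller than that of any Sprr2 gene other than Sprr2a2.

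Genes for the factors named as background regulators were described in the same way, beside 6.69% higher and 3.05% lower over all genes. Of 8 AP-1 subunits, 2 were 2-fold or more higher and 2 that much lower, with a median of -0.19. Fosl1, which encodes FRA1, was highest at 2.01 (176 in wild-type and 583 in Pnpla1-/- skin) and Fosb lowest at -1.66 (2032 and 531). The AP-1 genes thus did not share a direction, and without scaling or with spike-in centring 1 was higher and 2 were lower.

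Of 9 epithelial transcription factor genes, 4 were at least 2-fold higher and 0 lower, with a median of 0.26 that lay below 0 under the same pair of settings. Ehf, an epithelial ETS factor, was highest at 4.75 (528 and 11715), and Gata3, which acts in keratinocytes and hair follicles, was lowest at -0.27 (19961 and 13575). Of 7 NRF2 target genes, 1 was higher and 1 lower (2 lower without scaling and with spike-in centring), with a median of -0.07, from Hmox1, the haem oxygenase, at -1.55 (11430 and 3200) to Slc7a11, the cystine transporter, at 5.20 (29.7 and 900.2), or 3.72 with normexp. Of 9 genes for STAT3-linked cytokines and feedback, 4 were higher (3 with spike-in centring) and 0 lower, with a median of 1.16. Il19, an IL-20 family cytokine, was highest at 5.72 (24.1 and 1044), or 4.04 with normexp, and Lif, well above background in Pnpla1+/+ skin only, had the lowest value, a bound of -0.23. All of these differences were smaller than those of Sprr2f, Sprr2i, Sprr2j-ps, Sprr2e and Sprr2g.

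Marker genes showed that the samples held more than epidermis. Keratinocyte, fibroblast and muscle markers were well above background on both arrays, with intensities of 277989 in wild-type and 262540 in Pnpla1-/- skin for the suprabasal keratin Krt10, 275482 and 201776 for Col1a2 and 143228 and 121934 for Acta1. The cells in which the Sprr2 RNA lay were not resolved. The medians below are log2 differences, and the sums are of intensities divided by the 75th percentile of the array. Each count at 2-fold stands beside 6.69% higher and 3.05% lower over all genes. The brightest probe of each list, named because it weighs most in the sum, does not rank the genes by abundance.

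Of 6 basal keratinocyte markers, 1 was at least 2-fold higher (Krt14, 1.35) and 1 lower (Krt15, -1.67), with a median of 0.15, sums of 194.8 in wild-type and 227 in Pnpla1-/- skin and the brightest probe in Krt5. Of 6 suprabasal markers, 1 was higher (Dsc1, 1.20) and 0 lower, with a median of 0.15, Krt2 lowest at -0.54, sums of 309 and 342 and the brightest probe in Krt10. Members of each list went both ways, so the medians do not show whether the keratinocyte content changed. Both medians lay below 0 without scaling and with spike-in centring, the suprabasal one also with quantile normalization. With spike-in centring Krt14 was at 0.92 and Dsc1 at 0.77, both short of 2-fold, and Dsc1 was also short of it without scaling.

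Of 8 hair follicle markers, 0 were at least 2-fold higher and 2 lower, against 3.05% of all genes lower. The list had a median of -0.83, sums of 81.4 and 46.2 and the brightest probe in Krt71. The lowest was Krt72 at -3.41 and the highest Foxn1 at 0.52. The count of lower hair follicle markers was 5 without scaling and 6 with spike-in centring, where their median was -1.26. Over all genes, 1423 of 22352 were lower without scaling and 2146 of 22191 with spike-in centring. Of 8 leukocyte markers, 1 was higher and 0 lower among 7 with a difference, with a median of 0.42 (-0.01 with spike-in centring), sums of 14.8 and 20.4 and the brightest probe in Csf1r. Ptprc was highest at 1.51 and Itgam, a myeloid integrin, lowest at -0.03 at its brightest probe. With probes averaged within a gene, Itgam was at 1.32, 2 leukocyte markers were at least 2-fold higher and the median was 0.55. Cd207, the Langerhans cell marker, was detected in neither genotype. The part of these shifts in the Sprr2 values was not tested.

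None of the 6 fibroblast, 5 skeletal muscle, 4 endothelial and 4 adipocyte markers was 2-fold higher or lower. Their medians were -0.07, 0.05, 0.35 and 0.06, of which the last 3 turned negative with spike-in centring. The muscle and adipocyte medians were also negative with median scaling, no scaling and quantile normalization. The extremes were Pdgfra at 0.32 and Lum at -0.27, and Myh3 at 0.57 and Mylpf at -0.22. Among endothelial genes Tie1 was at 0.51, Cdh5 at 0.39, Kdr at 0.31 and Pecam1 at 0.17. Among adipocyte genes Fabp4 was at 0.10, Adipoq at 0.06 and Plin1 at -0.08, and Lep was not well above background. Of 5 simple epithelium markers, 0 were higher and 1 was lower, with Krt19 at -1.11, Krt18 at 0.27 and a median of -0.52. That count was 2 without scaling and with spike-in centring and 0 with normexp, where Krt19 was at -0.76. Of the markers named, Krt5, Krt10, Acta1, Adipoq, Cdh5, Fabp4, Kdr, Krt18, Pdgfra and Pecam1 changed sign under other scalings.

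The differences of the 8 Sprr2 genes other than Sprr2a2 held under each of the 10 settings of scaling, background, filter and probe choice that gave a value, always at least 2-fold higher. Sprr2f ran from 8.94 to 9.98, Sprr2i from 9.18 to 9.83, Sprr2j-ps from 8.18 to 9.18 and Sprr2e from 8.72 to 9.15. The bound of Sprr2k ran from 4.95 to 6.78, its measured difference with no filter on dim probes was 6.85, and Sprr2h ran from 4.32 to 4.75. Sprr2a2 was the exception, at 2.10 with the mean over its probes detected on both arrays, which leaves out the 5′-most probe. At its 3′-most probe it was below 0 with no scaling and with spike-in centring.

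**Figure D5:**
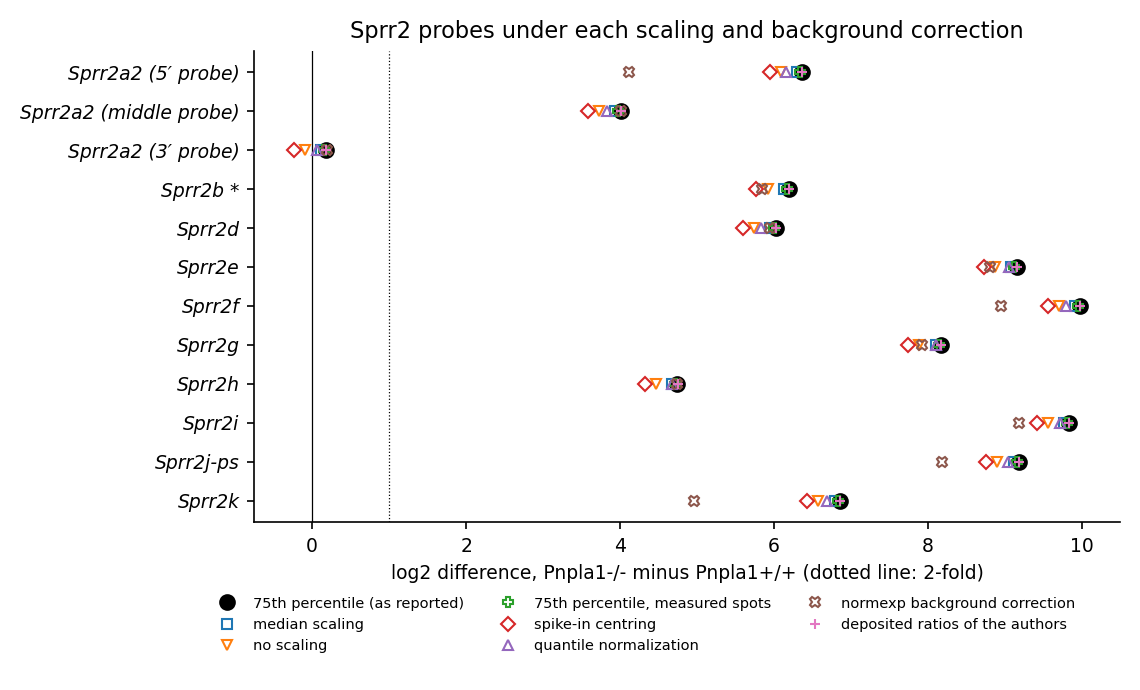
Log2 difference (Pnpla1-/- minus Pnpla1+/+) of each Sprr2 probe as reported and under each other scaling, normexp background correction and the authors' deposited ratios, each symbol 1 setting; for Sprr2k and the 5′-most Sprr2a2 probe the measured difference stands in place of the bound, the asterisk marks the flagged Sprr2b spot and the dotted line is 2-fold. All symbols lie to the right of the dotted line except those of the 3′-most Sprr2a2 probe, which lie on both sides of 0.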

How the data were processed

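RNA pooled from 6 newborn skins per genotype was hybridized to Agilent Mouse 4x44K v2 arrays. The authors scanned them with Agilent Feature Extraction 11.5.1.1, named in the submitters' processing notes, and deposited per spot a background-subtracted intensity on a linear scale, with flags. The deposited series table holds, per the values, the ratio of this intensity to a constant of the array (2109 in wild-type and 1734 in Pnpla1-/- skin), and the methods name only a global normalization in GeneSpring.

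Each intensity was taken to log2 and centred on the 75th percentile of its array, controls excluded (Python 3.11.15; numpy 2.4.6; pandas 2.3.3). Outlier-flagged spots, 138 in wild-type and 82 in Pnpla1-/- skin, were dropped from both arrays, log2 values of a probe's spots were averaged, and a gene took its best-detected, then brightest, probe. RefSeq names (GRCm38.p6) were found through the accession for 27508 probes, through the symbol for 3544 and through a former symbol for 404, while 7973 kept the array's name. Probe positions are those of the files on mm9. With 1 array per genotype there was no test, and precision is limited by the number of arrays.

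The genes named are every member with every probe, Pnpla1, all genes of lists of 4 or fewer and otherwise the highest and lowest, the 5 genes nearest the family median and the neighbours from Lor to Ivl. Col1a2, Acta1, Adipoq, Cdh5, Fabp4, Kdr, Krt5, Krt10, Krt71, Csf1r, Pecam1, Cd207 and Lep are also named, as the brightest, undetected or sign-changing markers. The members and lists were chosen with earlier results of these data known. The 12 alternatives comprised 5 scalings (median, none, 75th percentile of detected spots, E1A spike-in probes, quantile), normexp background correction (offset of 50, limma 3.58.1, R 4.3.3), the authors' ratios, the mean over a gene's probes detected on both arrays, no filter, flagged spots kept, and thresholds of 1.5-fold and 3-fold. The computation was tested on simulated data.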

Additional observations from a re-analysis of the deposited data

Results flagged for a closer look

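The Sprr2b spot was left out of the counts at 2-fold because the scanner software marked it as not uniform on the Pnpla1+/+ array, and its signal in Pnpla1-/- skin was nevertheless far above that in wild-type skin. Its log2 difference was 6.20, or 73.3-fold higher in Pnpla1-/- skin. On the Pnpla1+/+ array the mean of its pixels was 269.6 and their median 223, with an SD of 198. Whether the uneven spot changed the value was not tested.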

How the results depend on the processing

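At the 3′-most probe that represents it, Sprr2a2 changed direction with no scaling, to -0.10, and with centring on the spike-in probes, to -0.24. Its middle probe stayed higher in Pnpla1-/- skin, at 3.73 and 3.58. So did its 5′-most probe, at a measured 6.09 and 5.94. No scaling gave -2.35 for Pnpla1, 8.38 for the Sprr2 median and 997 higher and 1423 lower genes at 2-fold, and spike-in centring gave -2.49, 8.23, 828 and 2146. Normexp gave -1.51, 8.05, 959 and 321. The Sprr2 median was 8.56 with quantile normalization and 8.17 with flagged spots kept. No filter on dim probes gave 3041 higher and about 1.1e+03 lower genes, against 1497 and 682, a 1.5-fold threshold 3092 and 2091, and a 3-fold threshold 683 and 228. The share of higher genes among those past 2-fold was 68.7%, but 41.2% with no scaling, 27.8% with spike-in centring and 58.7% with quantile normalization. The median over all genes moved by -0.28 with no scaling, by -0.43 with spike-in centring and by 0.10 with no filter. The 8 spike-in probes were 0.43 higher on the Pnpla1-/- array after the main scaling, and which scaling matches the RNA content of the skin was not tested. Of the recomputed values of Pnpla1, the Sprr2 genes and their median and the counts at 2-fold, 106 stayed within the technical spread or within 1.5 times the count, 50 moved and 2 reversed. Signal over background limits the folds of members that were dim in wild-type skin, where the lowest detected intensity was 23.9, and normexp moved Sprr2k to 4.95, Sprr2j-ps to 8.18 and the 5′-most Sprr2a2 probe to 4.11. No paired analysis was possible because each genotype had 1 array.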
